A study of Arabidopsis thaliana with 4 samples.

Results

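Pol V summits in non-coding RNA genes are the deposited Pol V peak summits whose position lay outside every protein-coding gene and pseudogene and inside a gene of any other type of the RefSeq annotation of Arabidopsis thaliana (TAIR10.1). There were 281 such summits among 11478, or 2.45% (95% Wilson interval 2.18 to 2.75%). They fell in 268 host genes, counting for each summit the shortest gene that held it. By gene type, 157 lay in lncRNA genes, 69 in misc_RNA genes, 31 in genes annotated as ncRNA, 17 in miRNA genes, 5 in tRNA genes, 1 in a snoRNA gene and 1 in a snRNA gene, and antisense_RNA and rRNA genes held 0.

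The study examined how DRD1, DMS3 and RDM1, the components of the DDR complex, act with RNA polymerase V. It made 4 anti-FLAG ChIP-seq libraries from inflorescences, 1 each of untransformed Col0 plants and of plants carrying DRD1-3xFLAG, DMS3-3xFLAG or RDM1-3xFLAG. According to its methods, the RDM1-3xFLAG transgene was a genomic fragment introduced into rdm1-3 mutant plants. The study's wild type for rdm1-3 was Wassilewskija (WS), whereas the untransformed ChIP-seq control was Col0. The signals of those libraries are not analysed here. The summits came from 1 peak call on published Pol V ChIP-seq reads set against a no-antibody control, so no replicate stands behind any position or score, no condition was compared and no difference below was tested. How precisely this call places a summit is not known. Short distances and overlaps with sites, motifs or mature RNAs below are therefore between listed positions only.

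Pol V is a plant-specific RNA polymerase that produces non-coding transcripts at its target loci. In RNA-directed DNA methylation these transcripts serve as scaffolds to which ARGONAUTE proteins loaded with small interfering RNAs bind, and the DNA methyltransferase DRM2 is brought to the same place. The DDR complex is required for Pol V to associate with chromatin. Well-characterised genes of the types described here are, as a rule, transcribed by other polymerases. Pol II transcribes many lncRNA genes, established miRNA genes and the TAS genes, and Pol III transcribes tRNA genes. From TAS transcripts, trans-acting small interfering RNAs are made after a miRNA has cut them. Which polymerase transcribes the uncharacterised genes among the members was not examined.

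Of the 8 TAS genes, TAS1A, TAS1B, TAS1C, TAS2 and TAS3A held a summit, and their sequences are printed to show where it lay relative to the site that the miRNA recognises. TAS1 and TAS2 transcripts are cut by miR173, and TAS3 transcripts carry a pair of sites for miR390. Each run below is written in the direction of transcription (build TAIR10.1, sequence from RefSeq) and joins the summit base to the miRNA site, which is in capitals. In TAS1A, TAS1B, TAS1C and TAS3A the first base is the summit. In TAS2 the last base is the summit, because there the site came first.
TAS1B, chr1:18549660-18549751 (-): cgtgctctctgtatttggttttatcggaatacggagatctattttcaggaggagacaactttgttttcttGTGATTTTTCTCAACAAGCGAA
TAS1A, chr2:11722081-11722130 (-): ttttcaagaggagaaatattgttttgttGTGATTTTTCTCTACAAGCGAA
TAS1C, chr2:16537890-16537924 (-): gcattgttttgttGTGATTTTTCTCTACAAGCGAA
TAS2, chr2:16539854-16540012 (-): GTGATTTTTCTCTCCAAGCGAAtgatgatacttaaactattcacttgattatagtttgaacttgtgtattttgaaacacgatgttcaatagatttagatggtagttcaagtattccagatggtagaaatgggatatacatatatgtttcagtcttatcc
TAS3A, chr3:5862073-5862119 (+): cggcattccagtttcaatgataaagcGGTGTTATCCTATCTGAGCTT

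The miRNAs themselves, with the seed (bases 2 to 8) in capitals, read as follows.
miR173-5p: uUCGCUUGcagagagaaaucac
miR390a-5p: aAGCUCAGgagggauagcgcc

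The TAS1 and TAS2 sites were found by matching the reverse complement of miR173-5p along each gene. TAS1A, TAS1C and TAS2 each had a best site with 2 mismatches over 22 bases, TAS1B had one with 3, and no other position in these 4 genes had fewer than 8. The TAS1C summit lay 13 bp before its site, the TAS1A summit 28 bp before and the TAS1B summit 70 bp before. All 3 TAS1 summits therefore stood on the same side of the site and within 70 bp of it. The TAS2 summit differed, lying 137 bp past the end of the site, in the part of the transcript from which the small interfering RNAs arise. In TAS3A, the summit lay 26 bp before the first of the miR390 sites, which had 5 mismatches over 21 bases, as did the second site downstream.

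The score is a whole number that the peak caller gave each peak, without a stated unit, and it ran from 28 to 1615 over the list with a median of 169. TAS1B had a score of 1011, rank 164 of 11478. TAS3A (RefSeq symbol TAS3), whose small RNAs target transcripts of auxin response factors, had 812. TAS1A had 705 and TAS1C had 392. TAS2 had 125, the only one of the 5 below the median of the list. The gene lengths were 839 bp for TAS1B, 947 bp for TAS3A, 930 bp for TAS1A, 990 bp for TAS1C and 1034 bp for TAS2, and each gene held 1 summit. TAS1C and TAS2 are neighbours on chromosome 2, and their summits were 1930 bp apart.

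The TAS1 genes are close copies, and only uniquely mapping reads were kept. TAS1A and TAS1B were identical at 86.1% of 789 aligned bases, and TAS1A and TAS1C at 82.4% of 774. Every exact 50-base word within 250 bp of these summits occurred once in the genome. Words that match another place with mismatches were not counted, and whether reads were shared among the copies was not tested. When the TAS1A summit was carried over by the alignment, it fell 16 bp from the TAS1C summit and 41 bp from the TAS1B summit. The TAS2 summit lay 184 bp from the carried-over TAS1A summit.

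**Figure D1:**
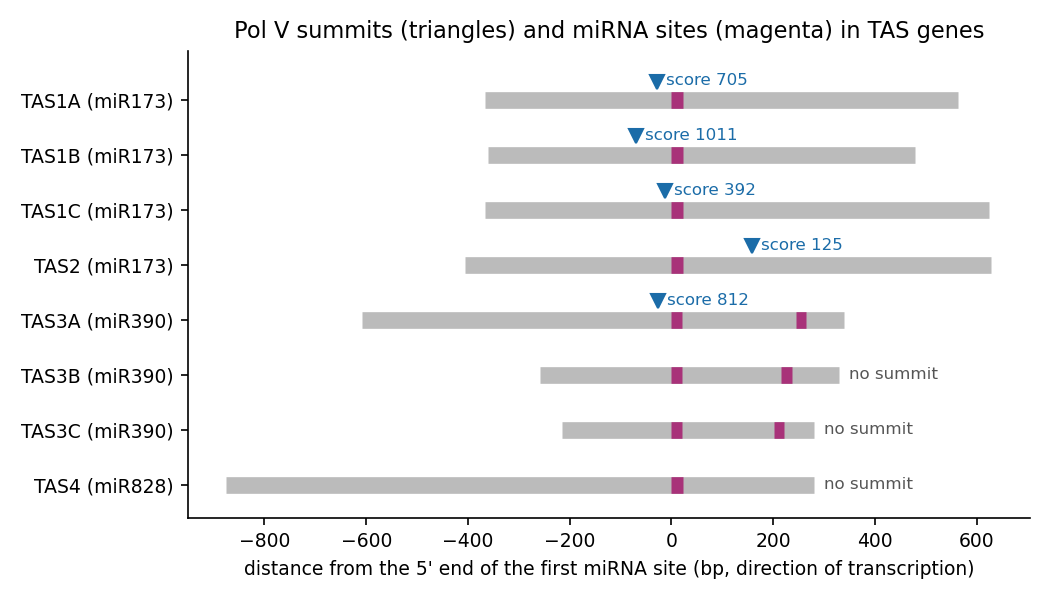
Map of the 8 TAS genes (grey bars, to scale, in the direction of transcription), aligned at the 5′ end of the first miRNA site (magenta), with distance in bp on the x axis. Blue triangles mark Pol V summits with their scores: 4 of the 5 summits stood 13 to 70 bp before the first site, the TAS2 summit stood 137 bp past it, and 3 genes held none.

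Of the 8 TAS genes, 5 held a summit. For comparison, 280 of the 4343 non-coding RNA genes with bases outside protein-coding genes and pseudogenes held at least 1 summit, a background of 6.45%. Among those of 400 to 1200 bp with at least 400 such bases, the size range of the TAS genes, 136 of 1058 did (12.9%). The TAS list was chosen with earlier results of these data known and is described here without a test. The 3 TAS genes without a summit differed in how far the nearest one lay. For TAS3C it was 802 bp upstream, with a score of 332. For TAS3B it was 6600 bp upstream and for TAS4, whose transcript is cut by miR828, 10669 bp upstream.

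Other well-studied long non-coding RNAs were examined in the same way. APOLO, an RNA that acts on the neighbouring PID gene, held 2 summits, with a score of 315 at the first. It is not among the 281, since the annotation used files it as protein-coding. ASCO, which interacts with splicing regulators, held none, but a summit with a score of 925 stood 102 bp upstream of its start. The nearest summit to COOLAIR, the antisense RNA of the flowering repressor FLC, was 693 bp downstream with a score of 197. ELENA1, AT4 and IPS1 had no summit within 10 kb: the nearest stood at 11031 bp, 15845 bp and 24061 bp. The last 2 genes are likewise annotated as protein-coding, and both are phosphate-starvation RNAs that sequester miR399.

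miRNA genes had the highest summit density among the gene types, and the sequences of the 2 highest-scoring precursors are shown to place the summits against the mature RNA (capitals, RefSeq, TAIR10.1, 5′ to 3′ on the strand of the gene).
MIR8173 precursor, chr5:7478569-7478673 (-): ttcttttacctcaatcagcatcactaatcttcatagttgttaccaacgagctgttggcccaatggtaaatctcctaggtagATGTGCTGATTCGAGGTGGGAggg
MIR5651 precursor, chr3:17178447-17178608 (+): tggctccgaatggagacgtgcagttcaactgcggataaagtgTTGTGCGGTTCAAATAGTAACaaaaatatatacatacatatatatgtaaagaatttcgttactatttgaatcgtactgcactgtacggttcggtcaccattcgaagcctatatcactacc

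MIR8173 had a score of 1090 (rank 108), with its summit 20 bp from the precursor start and 61 bp from the mature RNA. MIR5651 had 874 (rank 337), with its summit 23 bp from the start and 19 bp from the mature RNA. Over the 17 precursors, which gave 20 annotated mature RNAs, 3 summits lay inside a mature RNA and 11 lay within 50 bp of one. These precursors are 59 to 479 bp long, so much of their sequence lies near a mature RNA. The share of precursor bases that does was not measured, and the counts show no preference for mature RNAs. The farthest, in MIR5664, was 139 bp away. The mature RNAs of the 2 top precursors and of the 3 precursors with a summit inside one are printed with the seed in capitals.
miR8173, chr5:7478572-7478592 (-): aUGUGCUGauucgagguggga
miR5651, chr3:17178489-17178509 (+): uUGUGCGGuucaaauaguaac
miR8168, chr2:5080690-5080710 (+): aGGUGCUGagugugcuagugc
miR396a-5p, chr2:4142443-4142463 (-): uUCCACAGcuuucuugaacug
miR171c-3p, chr1:22930095-22930115 (-): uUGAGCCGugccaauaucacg

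The 20 mature RNAs had 20 distinct seeds, so no seed family was held by more than 1 member. MIR396a and MIR171c belong to conserved miRNA families, whose targets include transcription factors of the GRF and the GRAS (HAM) type. MIR396a had a score of 354 and MIR171c had 168. MIR8168 had 273. The remaining precursors were MIR5662 (score 703), MIR8166 (433), MIR407 (375), MIR5665 (294), MIR5664 (252), MIR8121 (208), MIR8169 (136), MIR5659 (120), MIR858a (97), MIR447c (81), MIR839 (63) and MIR2937 (58). Scores in the miRNA genes thus ran from 58 to 1090.

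Precursors are short, with a median length of 144.5 bp over all 326 annotated. The 244 with bases outside protein-coding genes and pseudogenes offered 0.0396 Mb, in which 17 summits made 429 per Mb (exact 95% Poisson interval 250 to 687, counting error only). Outside every gene there were 189 per Mb (185 to 193). These 2 intervals did not overlap, although 17 summits in 1 peak call are few, and the interval of the miRNA genes overlapped those of the snoRNA, tRNA and snRNA genes. In steps of 250 bp around the precursor starts, density was 312 per Mb in the 250 bp before the start, 331 in the first 250 bp after it and 274 in the next, against 113 and 138 in the steps on either side. These values rest on 18, 19 and 15 summits, against 6 and 7, and were not tested. The other steps within 2000 bp ranged from 133 to 215. Single high steps were also seen at other gene types. ncRNA genes had 447 per Mb (18 summits) from 500 to 250 bp before the start. misc_RNA genes had 316 per Mb (30 summits) from 750 to 1000 bp after it.

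A summit lay in 5 tRNA genes, whose whole sequences are printed with the B box, the internal promoter element bound by TFIIIC, in capitals. The B box was searched as GTTCNANNC on the strand of the gene, and 573 of all 625 tRNA genes (91.7%) hold it.
AT1G33370 tRNA-Gly, chr1:12097279-12097347 (-): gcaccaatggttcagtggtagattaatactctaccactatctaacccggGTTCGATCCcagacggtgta
AT4G39672 tRNA-Val, chr4:18411265-18411338 (+): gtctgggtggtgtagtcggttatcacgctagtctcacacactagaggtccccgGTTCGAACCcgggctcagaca
AT1G64420 tRNA-Ala, chr1:23933137-23933209 (+): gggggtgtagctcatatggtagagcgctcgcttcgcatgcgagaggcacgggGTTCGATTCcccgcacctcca
AT1G50070 tRNA-Leu, chr1:18552999-18553078 (+): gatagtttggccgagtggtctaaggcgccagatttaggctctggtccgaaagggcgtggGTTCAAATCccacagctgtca
AT3G55735 tRNA-Met, chr3:20693686-20693757 (+): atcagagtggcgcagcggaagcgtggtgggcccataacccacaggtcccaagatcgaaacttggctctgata

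The listed summits of the tRNA-Gly gene (base 51) and the tRNA-Val gene (base 58) lay inside the B box match, which spanned bases 50 to 58 and 54 to 62. The match is 9 bases long in genes of 69 and 74 bp, and 1 peak call cannot be relied on to place a summit that finely. The summit was at base 24 of the tRNA-Ala gene and at base 39 of the tRNA-Leu gene, both before the match. The tRNA-Met gene held no match in this window. Scores were 417 for tRNA-Gly, 368 for tRNA-Met, 170 for tRNA-Ala, 83 for tRNA-Val and 42 for tRNA-Leu. The tRNA-Leu summit had the least unique surroundings, with 72.6% of 50-base words found once in the genome, and the mean over the 5 was 90.9%. Of 574 tRNA genes with free bases, the 5 made 0.871% (Wilson interval 0.373 to 2.02%), and density was 116 per Mb (37.5 to 270). That interval includes the density outside genes.

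snoRNA genes, which guide modification of ribosomal RNA, held 1 summit among 204 genes with free bases, in AT1G06667 (AtsnoR43.10) with a score of 392. snRNA genes held 1 among 52, in U1.3, with a score of 60. Density around snoRNA gene starts was 24.5 to 69.0 per Mb in each step from 500 bp upstream to 1250 bp downstream, on 1 or 2 summits a step. Farther upstream, between 2000 and 500 bp, it was 155 to 480 per Mb, on 3 to 7 summits a step. In the steps from 1250 to 2000 bp downstream it was 296, 125 and 148 per Mb, on 6, 2 and 2 summits. Around tRNA gene starts it ranged from 17.5 to 226 per Mb without a clear peak, and around lncRNA gene starts from 181 to 244.

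**Figure D2:**
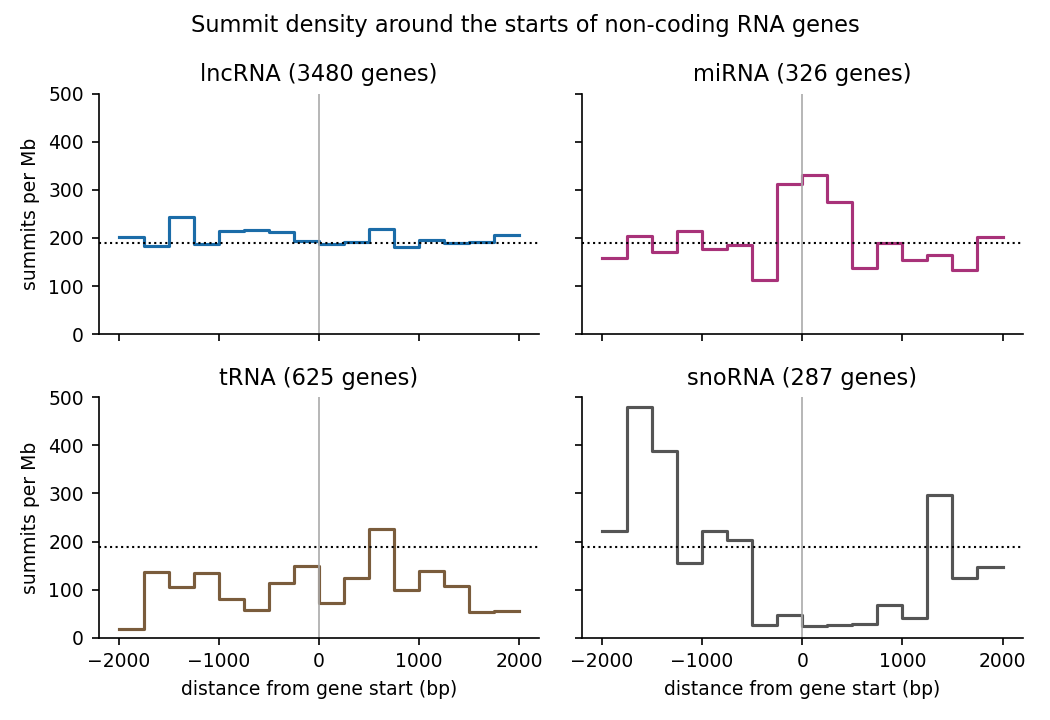
Summits per Mb of bases outside protein-coding genes and pseudogenes (y axis) in steps of 250 bp from the gene start (x axis, negative is upstream) for 4 gene types, with the dotted line at the density outside every gene (189 per Mb). The highest miRNA step was 331 per Mb (19 summits) just after the start, the snoRNA genes stayed below 70 per Mb from 500 bp upstream to 1250 bp downstream, and the lncRNA genes stayed between 181 and 244.

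Most members lay in genes with no assigned function. The 2 misc_RNA genes and the lncRNA gene with the highest scores of their type are shown as 101 bp around the summit, on the strand of the gene, with the central 21 bases in capitals.
AT2G08145, chr2:11163986-11164086 (+): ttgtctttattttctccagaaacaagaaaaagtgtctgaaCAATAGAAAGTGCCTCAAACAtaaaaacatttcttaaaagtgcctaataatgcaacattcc
AT5G00500, chr5:10291105-10291205 (-): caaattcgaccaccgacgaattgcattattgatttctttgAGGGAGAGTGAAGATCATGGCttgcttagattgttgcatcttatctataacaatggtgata
AT1G08517, chr1:23068229-23068329 (+): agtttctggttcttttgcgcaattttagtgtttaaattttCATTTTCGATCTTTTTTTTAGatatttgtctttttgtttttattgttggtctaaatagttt

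AT2G08145, a misc_RNA gene of 816 bp, held the summit with the highest score of all members, 1580 (rank 5 of the list), 760 bp from the gene start and 539 bp upstream of the protein-coding gene AT2G26230. AT5G00500, a misc_RNA gene of 930 bp, followed with 1306 (rank 29). These were the only 2 members among the first 100 of the list. AT1G08517, a lncRNA gene of 308 bp, had 952. The 10 highest scores were completed by MIR8173 and TAS1B, by the misc_RNA genes AT1G09655 (969, 496 bp upstream of the lipoxygenase gene LOX1), AT3G00560 (915) and AT4G02815 (905), by MIR5651, and by the lncRNA gene AT2G05665 (858). All 10 lay in exons, as did 243 of the 281 members. In 9 of them all 50-base words within 250 bp were unique, and AT4G02815 was the exception with 93.4%.

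The median score of the 281 was 226, the middle part of them lay between 104 and 392 (the quartiles), and the extremes were 32 and 1580. The median was 189 outside every gene, 135 in pseudogenes and 101 in protein-coding genes. By type it was 219 in lncRNA genes, 223 in misc_RNA genes, 282 in ncRNA genes, 252 in miRNA genes and 170 in tRNA genes. The ncRNA genes, which include the TAS genes, had the highest median among types with more than 1 member, and their quartiles (174 and 367) lay inside those of the lncRNA genes (98 and 421). In all, 40 members (14.2%) had a score of at least 602, the limit that 10% of all summits reached, against 11.1% outside every gene. At the low end, 70 of the 281 members had a score under 100. Low scores were not more common among members than in the list, since the lower quartile was 104 for members, 79 over all summits and 94 outside every gene.

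**Figure D3:**
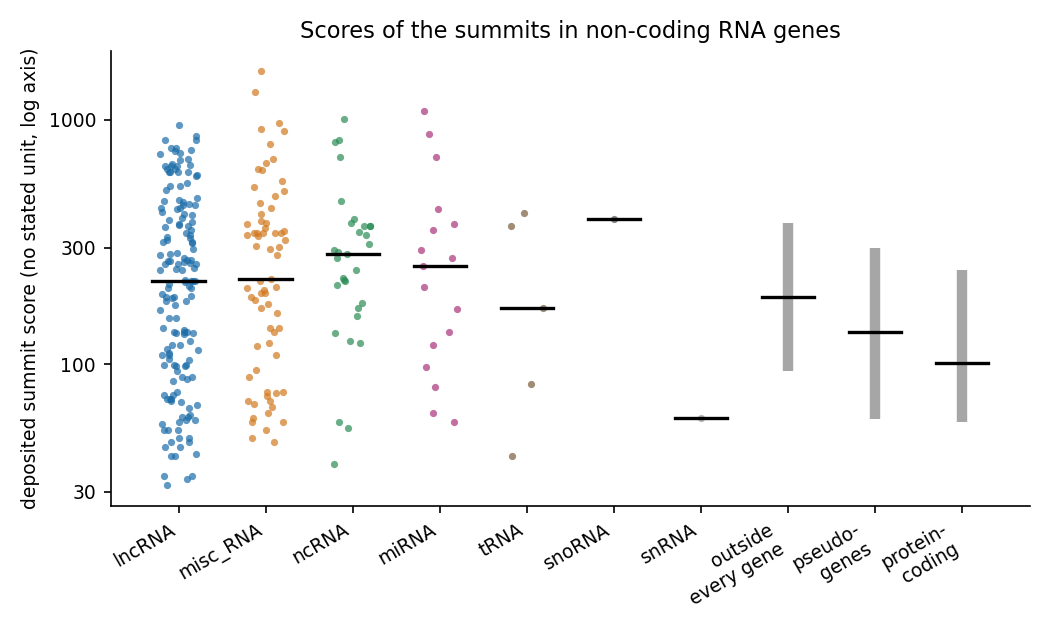
Deposited score (y axis, log scale, no stated unit) of each member summit by gene type, 1 point per summit, with the median as a black line. For the other location classes the grey bar gives the quartiles: the medians were 189 outside every gene, 135 in pseudogenes and 101 in protein-coding genes, against 226 over all members.

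Summit density put non-coding RNA genes beside the bases outside genes and apart from the other genes. There were 180 summits per Mb (160 to 203) in the 1.56 Mb that only non-coding RNA genes cover, and 189 per Mb outside every gene, a ratio of 0.953. Pseudogenes had 54.0 per Mb and protein-coding genes 40.03, so that density in non-coding RNA genes was 3.34 and 4.51 times as high. The larger types resembled each other, with 183 per Mb in lncRNA genes (156 to 214), 183 in misc_RNA genes (142 to 231) and 151 in ncRNA genes (103 to 214). All 3 intervals include the value outside genes.

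**Figure D4:**
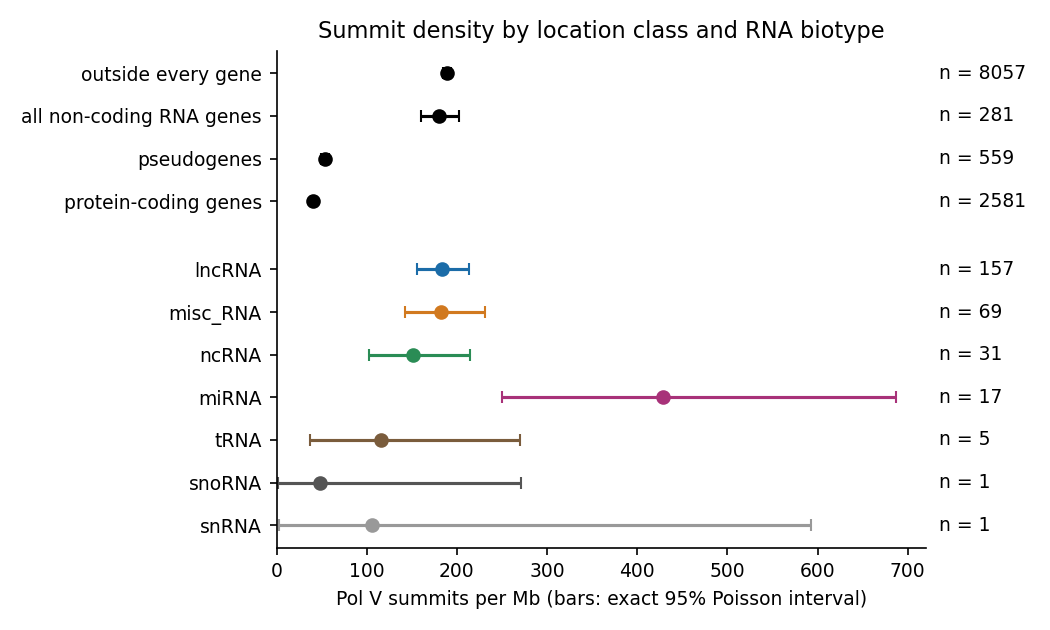
Pol V summits per Mb (x axis) in each location class and each non-coding RNA gene type, with exact 95% Poisson intervals as bars and the number of summits at the right. Non-coding RNA genes (180 per Mb) stood next to the bases outside genes (189) and above pseudogenes (54.0) and protein-coding genes (40.03), and miRNA genes reached 429.

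The share of genes with a summit differed by type, as did gene length. lncRNA genes (median length 333 bp among those with free bases) held one in 166 of 2546 cases (6.52%, 5.63 to 7.55%), misc_RNA genes (666 bp) in 62 of 505 (12.3%) and ncRNA genes (791 bp) in 28 of 210 (13.3%). Protein-coding genes, with a median of 2078 bp, held one in 2204 of 27444 cases (8.03%), and pseudogenes, at 1686 bp, in 474 of 4843 (9.79%). In these classes any summit inside the gene counted. In the non-coding RNA types only summits outside protein-coding genes and pseudogenes did, although the lengths are of whole genes. Within the lncRNA genes, 3.93% of those under 300 bp, 7.87% of those of 300 to 600 bp and 9.22% of longer ones held a summit, while density was 170, 208 and 142 per Mb. lncRNA genes wholly outside protein-coding genes had 206 summits per Mb (175 to 241). Those partly inside one had 69.4 per Mb of their free bases (36.9 to 119).

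There were 13 genes with 2 summits and 0 with 3, comprising 9 misc_RNA, 3 ncRNA and 1 lncRNA gene. The paired summits were 508 to 1937 bp apart, with a median of 993 bp. The closest pair was in the lncRNA gene AT1G07483 and the widest in the misc_RNA gene AT3G00850, both named after their values were seen. A further 12 summits lay in more than 1 non-coding RNA gene. The shortest of the genes holding them was a lncRNA gene for 11 and a miRNA gene for 1. The type of the longer gene was not counted.

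Along the host gene, from start to end, the 5 equal parts held 52, 55, 51, 64 and 59 summits, a nearly even spread. Exons held 243 and introns 38. The intron share was largest in ncRNA genes, with 12 of 31. How much of the genes is exon or intron was not measured, and a gene without annotated exons was counted as exon. These counts therefore show no preference for exons or introns. Within 50 bp of a gene end lay 70 members, and 103 summits of the list lay 1 to 100 bp outside one. Membership of those near an end thus turns on the annotated boundary.

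GC content within 250 bp was on average higher around the members than around summits outside genes. It was 35.1% ± 4.53 (SD over 281 summits), against 30.2% ± 4.75 (8057 summits) outside every gene and 37.98% ± 5.28 in pseudogenes (559 summits). In protein-coding genes it was 37.98% ± 6.44 (2581 summits), and over all summits the mean was 32.5%. It was 36.5% ± 3.91 around summits in lncRNA genes, 33.4% ± 4.95 in misc_RNA genes, 35.0% ± 4.19 in ncRNA genes, 31.6% ± 3.79 in miRNA genes and 29.4% ± 2.31 in tRNA genes. The SDs are spreads over positions, and the ranges overlapped widely. A mean of 98.2% of 50-base words within 250 bp were found once for members and 97.7% for summits outside genes. Because only uniquely mapping reads were kept, summits of any class can be expected in largely unique sequence. Neither the GC content nor the uniqueness of all bases of each class was measured.

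**Figure D5:**
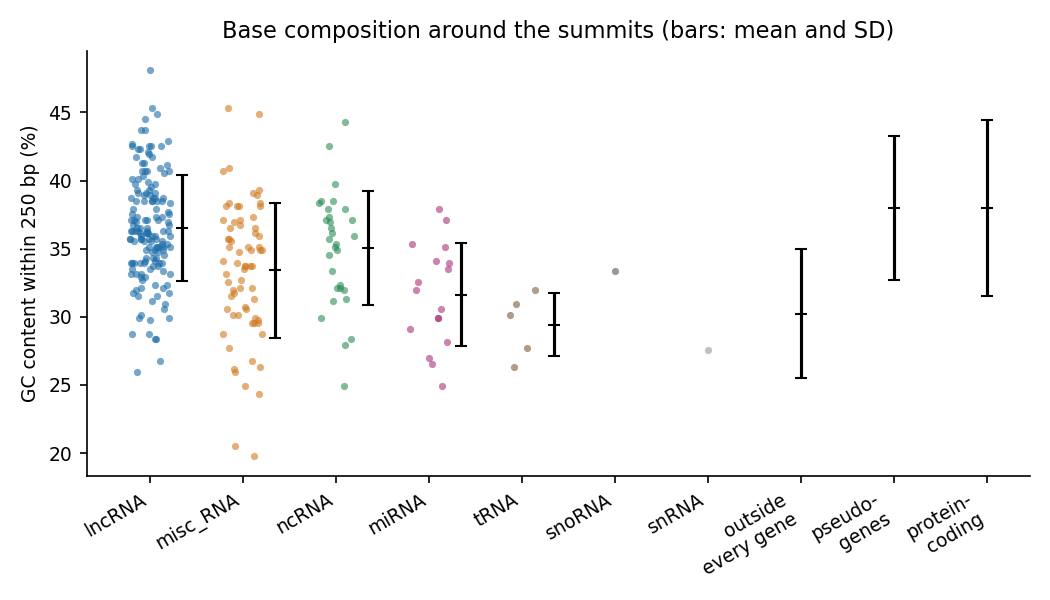
GC content (y axis, percent) within 250 bp of each member summit by gene type, 1 point per summit, with the mean and SD as bars, and the mean and SD alone for the other location classes. The lncRNA summits averaged 36.5% and the miRNA summits 31.6%, against 30.2% outside every gene.

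A smaller share of the members than of summits outside genes lay shortly upstream of a protein-coding gene. Of the members, 81 (28.8%, 23.8 to 34.4%) lay within 1000 bp upstream of a protein-coding gene, against 40.2% of summits outside every gene (39.1 to 41.3%). A second summit lay within 3000 bp of 65.8% of the members (60.1 to 71.1%), against 62.8% outside genes (61.7 to 63.8%), whose interval overlaps. Protein-coding genes covered less than 30% of the surrounding 500 kb for 17.1% of members and 20.1% of summits outside genes. Chromosomes 1 to 5 held 72, 62, 64, 38 and 45 members, or 1.82% (chromosome 5) to 2.95% (chromosome 3) of the summits on each.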

How the data were processed

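The peaks were made by the authors from published reads of a Pol V ChIP and its control without antibody. Reads were placed on TAIR10 with Bowtie 1.0.0, only where they mapped uniquely and with 2 mismatches or fewer, and Samtools 0.1.19 removed duplicates. MACS2 called the peaks (q-value 0.05), and those enriched over 2-fold were kept. Unique mapping loses signal in exact repeats. The deposited score, a whole number for each peak, has no stated unit and is no read count, so the depth is unknown. A blank record (1) was left out and 0 columns of values went unused. The list holds no comparisons by the authors.

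Genes, miRNAs and sequence came from RefSeq TAIR10.1, which shares the nuclear coordinates of TAIR10. Summits were assigned by position, protein-coding genes and pseudogenes first. Densities use determined bases that only the class covers, unique or not, so they are not corrected for bases where reads cannot map uniquely. Intervals (95%, Wilson or exact Poisson) cover counting error only, and alternatives for the median score and mean GC content were held to 95% intervals of that median (order statistics) and mean (normal) over positions. Best miRNA sites had the fewest mismatches, without gaps. Genes were aligned with Biopython 1.88, and Python 3.11.15, NumPy 2.4.6, pandas 2.3.3, SciPy 1.17.1 and matplotlib 3.10.9 were used. Assignment was tested on simulated data.

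Named were the 10 highest-scoring members, all members of gene types with 15 or fewer, genes with 3 or more summits, and 14 listed RNAs. The miRNA genes were added after their values were seen. Members and lists were chosen with earlier results of these data known. Alternatives covered score, merging, uniqueness, gene ends and window sizes.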

Additional observations from a re-analysis of the deposited data

How the results depend on the processing

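Of 27 alternatives, 14 left the value within its 95% interval or, for a number of summits, within 1.5 times, and 13 moved it. Keeping summits at or above the median score left 176 members, raised the density ratio to the bases outside genes to 1.09, and lowered the lncRNA genes with a summit to 3.89% and the members with a neighbour within 3000 bp to 34.1%. The mean score was 299.8 in place of a median of 226, with 274 outside genes. Mean GC content was 36.6% within 100 bp in place of 250 bp, with 31.3% outside genes. The share of lncRNA genes with a summit was 5.62% after merging summits within 1000 bp, 9.35% with genes widened by 100 bp and 4.99% with genes trimmed by 50 bp. Within 500 bp and 2000 bp upstream of protein-coding genes lay 12.8% and 49.1% of members, against 21.5% and 60.01% outside genes. A neighbour within 1000 bp and 6000 bp was found for 24.6% and 80.4%, against 25.3% and 81.0%. No paired analysis was possible because the list is 1 peak call with no replicates. The depth of the Pol V reads is unknown, and an absent summit does not show that Pol V is absent.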
